A study of Mus musculus with 6 samples.

Results

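Collagen genes are taken here as every mouse gene whose symbol has the form Col, a number, the letter a and a number, so that each gene codes for 1 alpha chain of a collagen. Of 44 such genes in the RefSeq gene table, 39 were matched to a probe, with 67 of the 41174 non-control probes of the array between them. Col6a3, Col6a5, Col12a1, Col20a1 and Col22a1 had no matched probe and were not analysed here. Membership was set by gene symbol and not by signal. Symbols came from the accessions of the probes, which were matched for 61.0% of the probes. In 33 of the 39 genes at least 1 group had a probe that was well above background on both of its arrays, and these 33 were tested. Among the other 6, no probe of Col6a6, Col10a1, Col13a1 or Col15a1 was well above background on any array, and Col19a1 and Col28a1 were so on 1 array each.

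Collagens are proteins of the extracellular matrix made of 3 alpha chains wound into a triple helix, either copies of 1 chain or a fixed mixture of chains. Fibrillar collagens bundle into the fibrils of connective tissue, type IV collagens form the sheet-like network of basement membranes, FACIT collagens attach to the surface of fibrils, and transmembrane collagens stay anchored in the cell membrane. In the brain the basement membrane surrounds vessels and lies under the meninges, where astrocyte endfeet reach it, while fibrillar collagens are known mainly from the fibroblasts of the meninges and of vessel walls.

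The cultures were primary astrocytes from the cortex and striatum of wild-type C57BL/6J mouse pups at postnatal day 1, grown in medium with 10% serum. Every culture, the controls included, had received 5 µM cytosine arabinoside for 2 days from about day 7, an agent that kills dividing cells and was used to deplete microglia. The study asked how lasting inhibition of the kinase GSK-3, which marks beta-catenin for destruction, alters gene expression in astrocytes. RNA was measured on 6 one-colour Agilent arrays, 2 in each of 3 groups. Ro cultures received 1 µM Ro3303544, a small molecule inhibitor of GSK-3, for 48 h from day 13 in vitro. Washout cultures received it for the same time and then spent 48 h in medium without it. Control cultures are labelled as kept in control medium, and the protocol text speaks of DMSO at the matching concentration. Whether the 2 cultures of a group were prepared separately is not stated, so that the p-values measure the spread between these arrays only, which may be technical.

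Arrays had 60.3% to 65.2% of their probes well above background and a 75th percentile of processed signal of 631 to 807, and precision is limited by their number. The Wnt target genes Axin2 and Sp5 were 4.29 ± 0.13 and 8.23 ± 0.08 higher on the log2 scale in Ro than in control cultures. Control and Ro arrays shared 1 slide and washout arrays were on another, and washout cultures were harvested at day 17 in vitro, against day 15 for the other groups. Washout, slide and age therefore cannot be told apart. A streak of raised dim spots, called a bright region here, covered 3.70% of the spots of washout array 1 and 0.804% of washout array 2. The probes used for Col1a1, Col4a1, Col7a1 and Col11a1 lay in it. Values are given below as scaled signal, in which the 75th percentile of each array is 100, and changes as the difference of group means on the log2 scale with limma's standard error, from 2 arrays a group. Signals of different probes are not compared as levels of RNA, and the marker sums below add them as a description only. An adjusted p under 0.05 over all 20091 features tested is the threshold for a call. In these bulk samples fewer cells of a type and less RNA per cell cannot be told apart.

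More collagens were lower than higher in Ro against control cultures. Of the 33 tested, 16 were lower (48.5%), against a background of 22.7% of all features tested, and 3 were higher (9.09%), against a background of 19.4%. The 3 that were higher were Col5a2, Col8a1 and Col23a1. The median change was -0.30 over the collagens and 0.00 over all features, and the median size of change, whatever its sign, was 0.51 and 0.31. Fitted falls of at least 2-fold that passed the threshold were found in 8 collagens, against 6.95% of all features. Col14a1, 1 of the 8, was below background in Ro cultures and is known only by a smaller bound, so that 7 were measured in both groups. Its probe was kept for testing through control cultures alone, where it was highest. Its place among the 16, among the 8 and among the falls that passed every exclusion below is therefore no separate support. A rise of that size was found in Col23a1, against 4.31% of all features. In FACIT collagens the median change was -0.78, in fibrillar collagens -0.47 and in type IV collagens -0.42, with 3 of 5, 6 of 11 and 3 of 6 genes lower. Transmembrane collagens were split, with 1 of 3 higher and 1 lower. The differences between classes were not tested. When each of the 6 arrays was left out in turn, 10 of the 16 falls and 2 of the 3 rises passed every time: Col2a1, Col3a1, Col4a1, Col4a2, Col4a3, Col5a1, Col5a3, Col8a2, Col14a1 and Col17a1 as falls, and Col8a1 and Col23a1 as rises.

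Set against Ro cultures, washout cultures had 9 collagens higher (27.3%), with a background of 21.4%, and 6 lower (18.2%), with a background of 20.1%. Neither share was far from its background. With median centring of the arrays the split was 7 higher and 9 lower, and with the authors' deposited values it was 6 higher and 9 lower, where the median over all features lay -0.10 from its position here. The 9 were Col4a1, Col4a3, Col5a1, Col5a3, Col8a2, Col9a2, Col11a2, Col14a1 and Col17a1, and the 6 were Col1a1, Col5a2, Col7a1, Col8a1, Col16a1 and Col23a1. Of these, Col14a1 was below background in both Ro and washout cultures. It was tested only because its probe was well above background in control cultures, so that its call is not a measured rise. Each fit with a single array left out lost some of these calls. Such fits leave 1 array in a group and less information on the spread of every feature. Whether the loss was particular to the collagens was not tested. Col4a3, Col5a3, Col8a2, Col14a1 and Col17a1 among those higher, and Col5a2, Col8a1 and Col23a1 among those lower, passed whichever array was left out. The comparison uses the same Ro arrays as that of Ro with control, so that the values of the 2 comparisons are not independent.

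Washout cultures had 11 collagens lower than control cultures (33.3%), against a background of 5.97%, and 1 higher, Col23a1 (3.03%), against a background of 4.13%. The median change was -0.35 over the collagens and -0.01 over all features. The 11 were Col1a1, Col1a2, Col2a1, Col3a1, Col4a1, Col5a3, Col6a2, Col7a1, Col9a3, Col16a1 and Col18a1, of which Col1a1, Col7a1 and Col16a1 had not passed in Ro against control. This count rests on every array: 5 collagens were lower without control 1, 1 without control 2, 2 without Ro 1, 1 without Ro 2, 1 without washout 1 and 6 without washout 2, with backgrounds between 0.891% and 4.21%. Col3a1 alone passed whichever array was left out. The call of Col23a1 depended on single arrays too, as described with that gene.

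**Figure D1:**
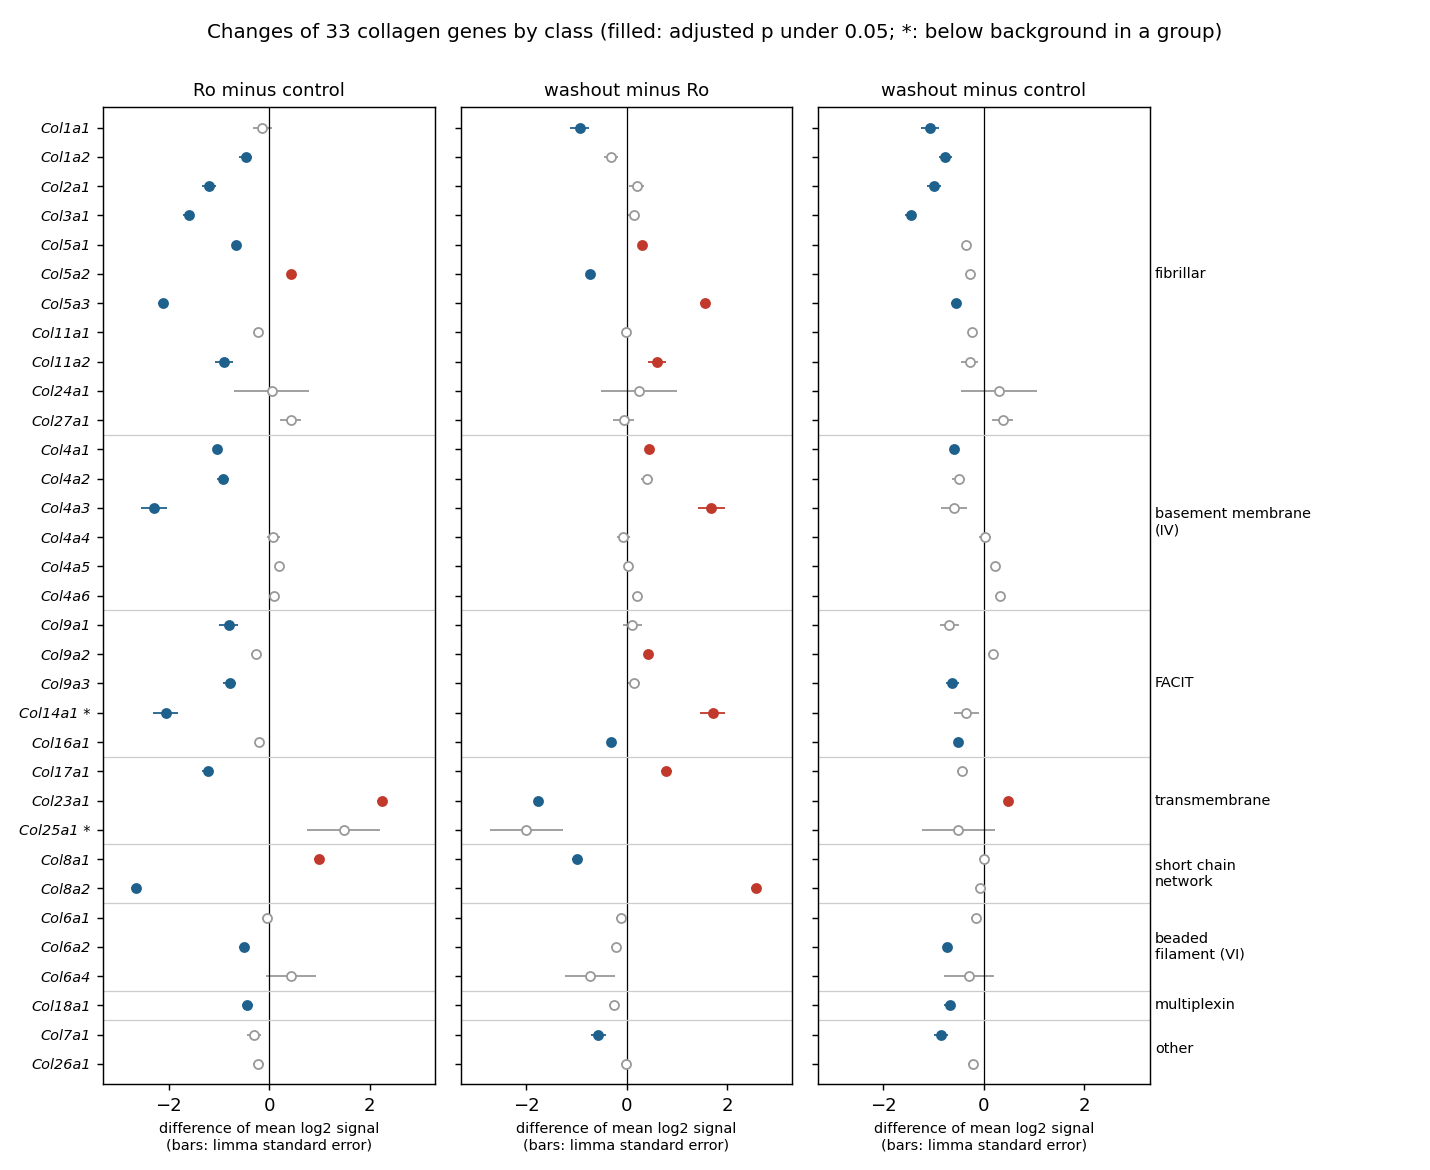
Change of each of the 33 tested collagen genes, grouped by class, as the difference of mean log2 signal between groups (x axis) with limma's standard error as bars, for Ro minus control, washout minus Ro and washout minus control. Filled points passed an adjusted p of 0.05, red for higher and blue for lower. In the panel of Ro minus control 16 points are filled blue and 3 red, and in that of washout minus control 11 are blue and 1 is red.

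Among the fibrillar collagens, Col3a1, the single chain of type III collagen, was lower in Ro and in washout cultures alike. Its scaled signal was 71.9 and 67.8 in Ro cultures, 71.3 and 83.0 in washout cultures, and 200.2 and 222 in control cultures. All 4 arrays of Ro and washout cultures were below both control arrays, and the Ro and washout arrays overlapped. The change was -1.60 ± 0.11 in Ro against control (3.02-fold lower, adjusted p = 0.000572) and -1.46 ± 0.11 in washout against control (adjusted p = 0.00689), and both passed under every alternative tried. Washout and Ro cultures differed by 0.14 ± 0.11 (adjusted p = 0.352).

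Type I collagen, the main collagen of connective tissue, joins the products of Col1a1 and Col1a2. Col1a1 had a scaled signal of 773 and 689.9 in Ro cultures, 343 and 425 in washout cultures, and 694 and 923 in control cultures. Ro and control arrays overlapped, and both washout arrays were below all the others. The difference was -0.13 ± 0.18 for Ro against control (adjusted p = 0.588), -0.94 ± 0.18 for washout against Ro (adjusted p = 0.0129) and -1.07 ± 0.18 for washout against control (adjusted p = 0.0316). A second Col1a1 probe, outside the bright region, gave -0.98 for washout against Ro and -1.03 for washout against control. The call against Ro was lost without Ro 1 (adjusted p = 0.0719), without Ro 2 (0.0539) and without washout 1 (0.0554). The call against control was lost without either control or Ro array or without washout 1 (adjusted p between 0.055 and 0.108).

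Col1a2 had 717 and 727 in Ro cultures, 613 and 557 in washout cultures, and 883 and 1125 in control cultures as scaled signal. Here the groups did not overlap, with washout lowest and control highest. Col1a2 changed by -0.47 ± 0.13 in Ro against control (adjusted p = 0.0431) and by -0.77 ± 0.13 in washout against control (adjusted p = 0.0331). Washout and Ro cultures differed by -0.31 ± 0.13 (adjusted p = 0.128). The call for Ro held in 8 of 17 alternatives and that for washout in 8 of 16. Without control 2 the change in Ro was -0.29 (adjusted p = 0.117), and without Ro 1, Ro 2, washout 1 or washout 2 its adjusted p was between 0.0626 and 0.160. For washout against control, leaving out control 2, Ro 1, Ro 2, washout 1 or washout 2 gave an adjusted p between 0.0819 and 0.0939.

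The 3 genes of type V collagen, which starts and limits the growth of fibrils, differed in direction. Col5a3 had a scaled signal of 53.3 and 46.7 in Ro cultures, 154 and 141 in washout cultures, and 212 and 221 in control cultures. The 3 groups did not overlap, and washout lay between. Its change was -2.12 ± 0.10 in Ro against control (4.34-fold lower, adjusted p = 0.000229), 1.56 ± 0.10 in washout against Ro (adjusted p = 0.000457) and -0.56 ± 0.10 in washout against control (adjusted p = 0.0345). The last call was lost under 9 of 16 alternatives, the exclusion of any single array among them (adjusted p between 0.068 and 0.144).

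Col5a1 followed the same order of groups, with 311 and 313 in Ro cultures, 381 and 396 in washout cultures, and 474 and 519 in control cultures. It changed by -0.67 ± 0.08 in Ro against control (adjusted p = 0.00278) and by 0.32 ± 0.08 in washout against Ro (adjusted p = 0.0282). A second, dimmer Col5a1 probe had another order, with 8.48 and 7.76 in Ro cultures, 4.87 and 7.08 in washout cultures, and 9.55 and 11.9 in control cultures. It passed in no comparison and gave -0.40 for Ro against control and -0.47 for washout against Ro, the second opposite in sign to that of the probe used. Col5a2 was the fibrillar gene that rose, and its scaled signal was 1111 and 1084 in Ro cultures, 660.2 and 671 in washout cultures, and 760.0 and 860.2 in control cultures. Both Ro arrays were above all the others. The change was 0.44 ± 0.09 in Ro against control (adjusted p = 0.0137) and -0.72 ± 0.09 in washout against Ro (adjusted p = 0.00286), while washout and control differed by -0.28 ± 0.09 (adjusted p = 0.111). The rise in Ro lost its call without control 1, Ro 1 or Ro 2 (adjusted p up to 0.0859), and that of Col5a1 in washout against Ro without either Ro or either washout array (up to 0.137). Col5a2 and Col3a1 are neighbours on chromosome 1 with 0 coding genes between them in the RefSeq table. The change of Col3a1 minus that of Col5a2 was -2.04 for Ro against control and -1.18 for washout against control.

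Type II and type XI collagens are best known from cartilage. Col2a1, the type II chain, had a scaled signal of 15.1 and 18.3 in Ro cultures, 18.2 and 20.1 in washout cultures, and 34.6 and 41.7 in control cultures. Control arrays were above all the others, and Ro and washout arrays overlapped. It changed by -1.19 ± 0.14 in Ro against control (adjusted p = 0.00307) and by -0.99 ± 0.14 in washout against control (adjusted p = 0.0231). A second Col2a1 probe gave -2.23 and -1.48 for these comparisons. On that probe Ro and washout arrays did not overlap, with 7.33 and 6.79 in Ro cultures and 11.4 and 12.3 in washout cultures, and washout was 0.75 above Ro (adjusted p = 0.00728 among all probes). The washout call was lost without control 1 (adjusted p = 0.0579), control 2 (0.0975), Ro 2 (0.0597) or washout 1 (0.0827).

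Col11a2 was lower in Ro than in control cultures by 0.89 (-0.89 ± 0.18, adjusted p = 0.0143) and higher in washout than in Ro cultures (0.60 ± 0.18, adjusted p = 0.0456). The call in Ro was lost without control 1, control 2 or Ro 2 (adjusted p up to 0.0740), and that in washout whichever array but Ro 1 was left out (up to 0.172). Its second probe gave -0.24 and -0.44, neither past the threshold, and was not well above background on either washout array. The 2 probes of Col11a1 disagreed. The probe used gave -0.23 ± 0.08 for Ro against control (adjusted p = 0.0725), and the other, with 28.1 and 25.1 in Ro cultures against 13.8 and 16.6 in control cultures, gave 0.81 (adjusted p = 0.018 among all probes) and, for washout against Ro, -0.62 (0.0385). Col24a1 and Col27a1 passed in none of the 3 comparisons, with changes of 0.05 ± 0.75 and 0.43 ± 0.21 in Ro against control.

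**Figure D2:**
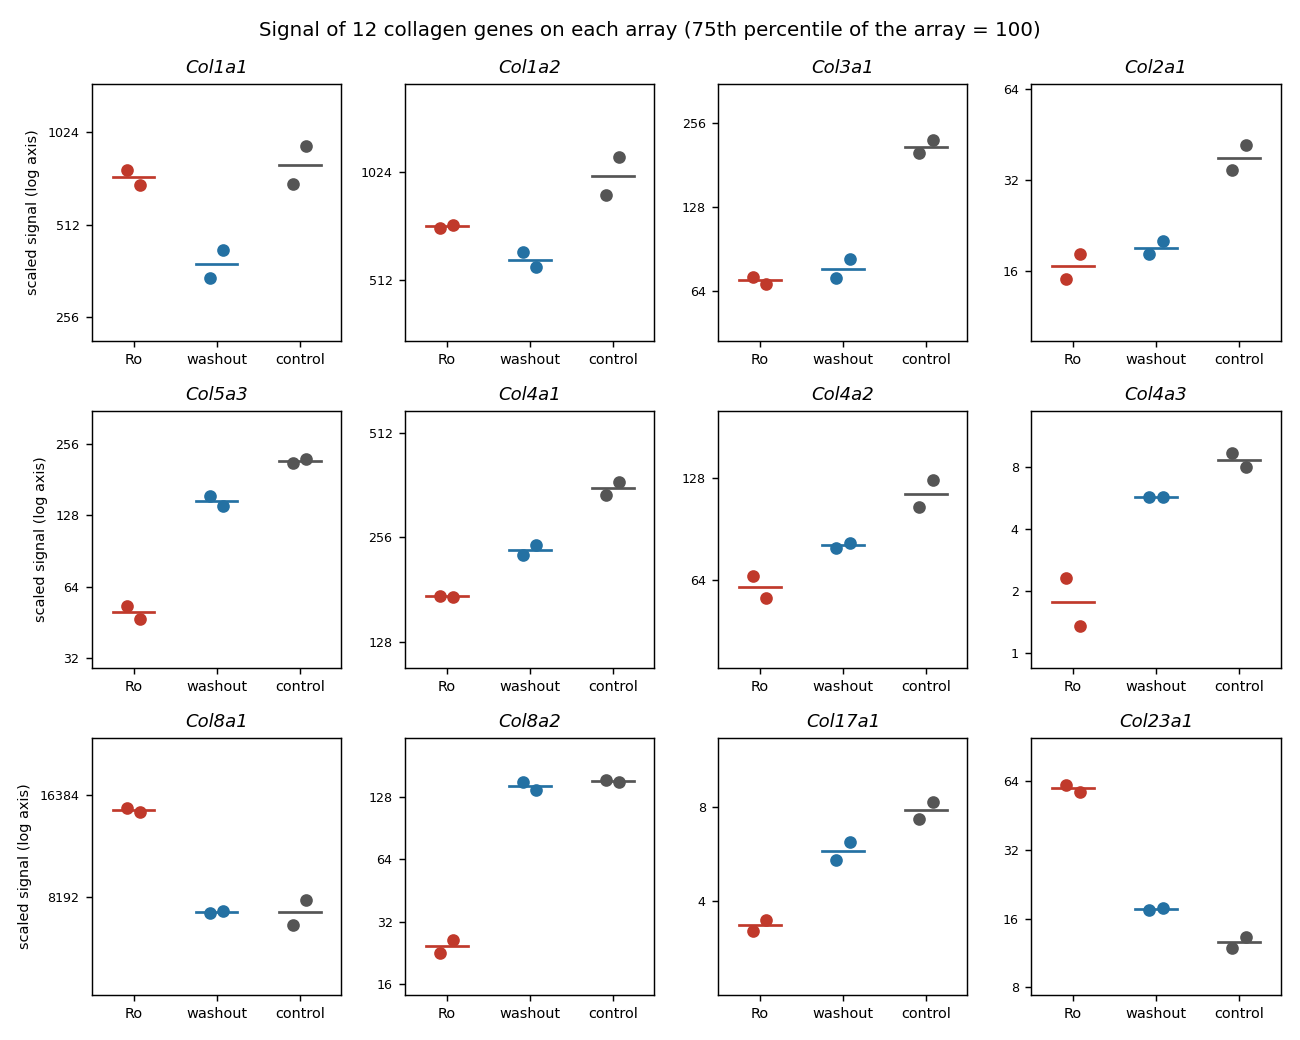
Scaled signal (log axis, 75th percentile of the array = 100) of 12 collagen genes on each array of the Ro, washout and control groups, with points for arrays and a bar for the mean of the log2 values. Col3a1 is between 67.8 and 83.0 in Ro and washout cultures and at 200.2 and 222 in controls, whereas Col8a2 is at 22.7 and 26.2 in Ro cultures and between 138 and 154 in the other groups.

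Type IV collagens split into genes that fell in Ro cultures and genes that showed no call. Col4a1 and Col4a2 code for the chains of the type IV molecule found in nearly every basement membrane, lie head to head on chromosome 8 and share the stretch from which both are transcribed. Their promoters, as windows of 300 bases around each start, are shown because the genes moved together. They are RefSeq sequence of GRCm38.p6, Col4a1 from chr8:11312777-11313076 on the minus strand and Col4a2 from chr8:11312555-11312854 on the plus strand. Capitals mark 2 motifs on either strand, the GC box GGGCGG and the box with the letters CCAAT, and the windows overlap by 78 bases.
Col4a1: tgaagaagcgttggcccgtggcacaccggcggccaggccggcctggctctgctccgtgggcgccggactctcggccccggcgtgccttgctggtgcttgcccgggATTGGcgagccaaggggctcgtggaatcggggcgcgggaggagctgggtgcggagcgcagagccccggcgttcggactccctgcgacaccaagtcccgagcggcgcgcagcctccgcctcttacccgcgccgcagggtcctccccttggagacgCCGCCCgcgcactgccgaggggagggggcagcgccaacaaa
Col4a2: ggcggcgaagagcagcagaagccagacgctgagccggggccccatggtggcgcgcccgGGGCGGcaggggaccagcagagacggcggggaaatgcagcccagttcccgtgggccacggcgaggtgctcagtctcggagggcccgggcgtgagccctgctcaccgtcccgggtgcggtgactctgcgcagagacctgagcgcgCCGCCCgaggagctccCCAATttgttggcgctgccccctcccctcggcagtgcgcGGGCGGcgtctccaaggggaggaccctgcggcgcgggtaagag
The Col4a1 window holds 1 GC box and 1 CCAAT box, and the Col4a2 window 3 GC boxes and 1 CCAAT box. The GC box of Col4a1 lies in the shared bases and is also 1 of the 3 counted for Col4a2.

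Col4a1 had a scaled signal of 174 and 172 in Ro cultures, 228 and 243 in washout cultures, and 339 and 369.9 in control cultures. Col4a2 had 65.7 and 56.6 in Ro cultures, 79.8 and 82.2 in washout cultures, and 105.2 and 126 in control cultures. Both genes had their 3 groups apart in the same order, Ro lowest and control highest. In Ro against control Col4a1 changed by -1.03 ± 0.08 (2.05-fold lower, adjusted p = 0.00085) and Col4a2 by -0.92 ± 0.12 (1.89-fold lower, adjusted p = 0.00439), a difference between the changes of -0.12. In washout against Ro they changed by 0.44 ± 0.08 (adjusted p = 0.0109) and 0.41 ± 0.12 (adjusted p = 0.0511), of which Col4a1 passed. Its call was lost without Ro 1 (adjusted p = 0.0682) or Ro 2 (0.0753).

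Washout against control gave -0.59 ± 0.08 for Col4a1 (adjusted p = 0.0202) and -0.51 ± 0.12 for Col4a2 (adjusted p = 0.0704). For Col4a1 this value depends on the probe. The probe used lay in the bright region, and the second Col4a1 probe, outside it, had 104.8 and 104.4 in Ro cultures, 158 and 159.5 in washout cultures, and 172 and 164 in control cultures. That probe gave -0.68 for Ro against control (adjusted p = 0.0019 among all probes) and -0.08 for washout against control, with no call. The Col4a1 washout call was also lost without control 1, control 2, Ro 1, Ro 2 or washout 1 (adjusted p between 0.0574 and 0.0903).

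Col4a3, with Col4a4 and Col4a5 a chain of the type IV molecule of the kidney filter, was dim. Its scaled signal was 2.32 and 1.35 in Ro cultures, 5.72 on both washout arrays, and 9.39 and 7.97 in control cultures, and it was well above background on 1 of 2 Ro arrays. The groups did not overlap. It changed by -2.29 ± 0.26 in Ro against control (adjusted p = 0.0026) and by 1.69 ± 0.26 in washout against Ro (adjusted p = 0.00654), and washout and control differed by -0.60 ± 0.26 (adjusted p = 0.214). With normexp background correction, which adds an offset to every spot, the changes were -0.76 and 0.41 and still passed. A second Col4a3 probe was well above background in control cultures alone and was kept for testing through that group. Its p-values are therefore no separate support. That probe gave a fall of at least 1.34-fold in Ro against control (adjusted p = 0.00204 among all probes). It passed for washout against control as well (adjusted p = 0.0438), with signals too dim for a fold. Col4a4 lies next to Col4a3 on chromosome 1 and had 74.6 and 84.6 in Ro cultures, 78.3 and 73.6 in washout cultures, and 68.1 and 82.4 in control cultures, all groups overlapping. The change of Col4a3 minus that of Col4a4 was -2.37 for Ro against control. Col4a5 and Col4a6, neighbours on the X chromosome, differed by 0.20 ± 0.08 and 0.10 ± 0.09 in Ro against control and passed in no comparison.

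FACIT collagens had 3 of 5 tested genes lower and 0 higher in Ro against control. Type IX collagen, a cartilage FACIT, joins the products of Col9a1, Col9a2 and Col9a3. Col9a1 changed by -0.81 ± 0.19 (adjusted p = 0.0239), Col9a3 by -0.78 ± 0.13 (adjusted p = 0.00841), and Col9a2 by -0.26 ± 0.09 (adjusted p = 0.0721). In washout against Ro Col9a2 passed (0.44 ± 0.09, adjusted p = 0.0168), and in washout against control Col9a3 (-0.64 ± 0.13, adjusted p = 0.0464). Col9a3 had 14.9 and 14.4 in Ro cultures, 16.6 and 15.8 in washout cultures, and 28.4 and 22.3 in control cultures, so that control arrays were above all the others. The calls in Ro were lost without control 1 or control 2 for Col9a1 (adjusted p up to 0.108) and without Ro 2 for Col9a3 (0.0578). Those in washout were lost without Ro 1, Ro 2 or washout 1 for Col9a2 (up to 0.109) and whichever array was left out for Col9a3 (up to 0.121). Col16a1, which changed by -0.20 ± 0.08 in Ro against control (adjusted p = 0.0863), had 318 and 301 in Ro cultures, 242 and 258 in washout cultures, and 351 and 362 in control cultures. Washout was lowest, with a change of -0.31 ± 0.08 against Ro (adjusted p = 0.028) and of -0.51 ± 0.08 against control (adjusted p = 0.024), both calls lost under every exclusion of an array but that of washout 2 (adjusted p up to 0.162).

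Col14a1, a FACIT of skin and tendon, was well above background in control cultures alone. Its scaled signal was 0.942 and 0.587 in Ro cultures, 2.17 and 2.73 in washout cultures, and 3.22 and 2.99 in control cultures. The lowest scaled signal called well above background was higher on the washout arrays (3.59 and 3.43) than on the control arrays (2.02 and 2.66). Washout and control cultures differed by -0.35 ± 0.25 in Col14a1 (adjusted p = 0.418). As a bound against the lowest signal called well above background, Col14a1 was at least 1.22-fold lower in Ro than in control cultures (adjusted p = 0.00303). Its probe was kept for testing through control cultures alone, where it was highest, so that this p-value is no separate support. Ro and washout cultures were both below background, so that no fold is given for its call between them, and that call was lost with normexp background correction (adjusted p = 0.103). A second Col14a1 probe was bright on Ro array 1 alone and was not tested.

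Transmembrane collagens held the largest rise of the 33 genes in Ro against control, together with a fall. Col23a1, whose product also sheds a soluble form, had a scaled signal of 61.8 and 57.2 in Ro cultures, 17.5 and 17.8 in washout cultures, and 11.9 and 13.3 in control cultures. The groups did not overlap, with Ro far above and washout between. Its change was 2.24 ± 0.09 in Ro against control (4.73-fold higher, adjusted p = 0.000184) and -1.75 ± 0.09 in washout against Ro (3.37-fold lower, adjusted p = 0.00028), both past the threshold under every alternative tried. Washout was 0.49 ± 0.09 above control (adjusted p = 0.0382), a call lost under 10 of 16 alternatives, each exclusion of a single array among them (values 0.40 to 0.57, adjusted p between 0.0851 and 0.122). A second Col23a1 probe gave 1.21, -1.32 and -0.11 for the 3 comparisons, so that the small excess in washout over control was not seen there.

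Col17a1, a collagen of hemidesmosomes that bind epithelial cells to the basement membrane, had 3.22 and 3.49 in Ro cultures, 5.42 and 6.19 in washout cultures, and 7.35 and 8.33 in control cultures. These groups were also apart, in the reverse order. It changed by -1.22 ± 0.11 in Ro against control (adjusted p = 0.00127) and by 0.79 ± 0.11 in washout against Ro (adjusted p = 0.00471), and with normexp background correction by -0.55 and 0.35, still past the threshold. Washout and control differed by -0.43 ± 0.11 (adjusted p = 0.0769).

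Col25a1, known in the human brain as a component of amyloid plaques, varied between replicates. It had 17.8 and 5.11 in Ro cultures, 2.66 and 2.13 in washout cultures, and 2.09 and 5.56 in control cultures, and was not well above background on either washout array. Ro and control arrays overlapped, with a difference of 1.48 ± 0.73 (adjusted p = 0.162). Washout was at least 2.72-fold lower than Ro, but this did not pass the threshold (adjusted p = 0.082). It passed without Ro 2 (adjusted p = 0.0444), which leaves the brighter Ro array alone. The bound was 5.07-fold without Ro 2 and 1.46-fold without Ro 1.

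The short chain collagens gave opposite changes in the genes of 1 collagen type. Type VIII collagen, a network collagen of vessel walls and of the cornea, is built from the products of Col8a1 and Col8a2. The promoters of these 2 genes are shown because the genes moved in opposite directions. They are RefSeq sequence of GRCm38.p6, Col8a1 from chr16:57754688-57754987 on the minus strand and Col8a2 from chr4:126286544-126286843 on the plus strand, with GGGCGG on either strand in capitals.
Col8a1: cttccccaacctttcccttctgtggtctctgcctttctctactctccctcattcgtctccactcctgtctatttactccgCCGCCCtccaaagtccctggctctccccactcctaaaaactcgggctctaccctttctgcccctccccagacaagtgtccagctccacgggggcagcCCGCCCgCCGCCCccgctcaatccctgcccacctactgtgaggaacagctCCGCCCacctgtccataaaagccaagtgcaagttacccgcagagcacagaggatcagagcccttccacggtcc
Col8a2: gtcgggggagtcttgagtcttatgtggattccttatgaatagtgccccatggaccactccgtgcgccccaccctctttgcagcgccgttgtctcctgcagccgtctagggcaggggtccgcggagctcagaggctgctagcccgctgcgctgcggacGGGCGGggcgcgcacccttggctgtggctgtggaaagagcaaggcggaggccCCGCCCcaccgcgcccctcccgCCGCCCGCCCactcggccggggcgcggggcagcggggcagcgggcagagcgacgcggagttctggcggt
Each window holds 4 GC boxes, of which 2 overlap in Col8a2, and neither holds CCAAT or the TCF/LEF motif ATCAAAG on either strand.

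Col8a1 had a scaled signal of 15002 and 14563 in Ro cultures, 7390.0 and 7489 in washout cultures, and 6796 and 8075 in control cultures. Col8a2 had 22.7 and 26.2 in Ro cultures, 152 and 138 in washout cultures, and 154 and 150.4 in control cultures. In each gene the Ro arrays stood apart, above all the others for Col8a1 and below them for Col8a2, and washout and control arrays overlapped. Col8a1 changed by 1.00 ± 0.10 in Ro against control (2.00-fold higher, adjusted p = 0.0018) and by -0.99 ± 0.10 in washout against Ro (adjusted p = 0.00178). Its second probe gave 1.11 and -0.99. Col8a2 changed by -2.64 ± 0.10 in Ro against control (6.25-fold lower, adjusted p = 0.000178) and by 2.57 ± 0.10 in washout against Ro (adjusted p = 0.000193), past the threshold under every alternative tried. The change of Col8a1 minus that of Col8a2 was 3.64 for Ro against control, the widest gap of the 12 pairs of chains compared. Washout and control differed by 0.01 ± 0.10 for Col8a1 (adjusted p = 0.976) and by -0.07 ± 0.10 for Col8a2 (adjusted p = 0.683).

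**Figure D3:**
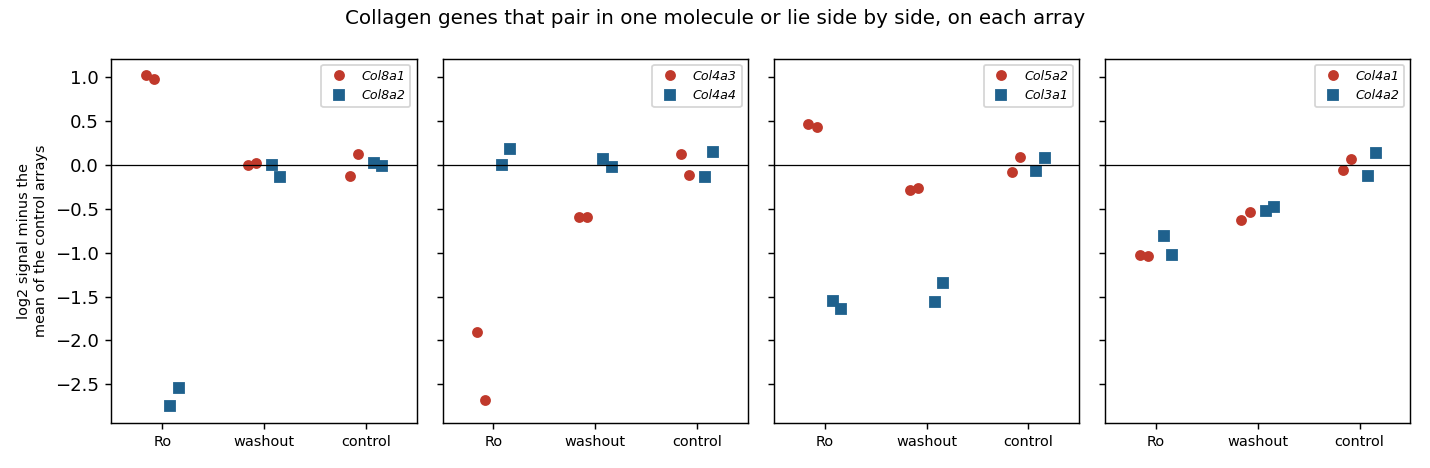
Log2 signal of 4 pairs of collagen genes on each array, minus the mean of the control arrays of that gene (y axis), for the Ro, washout and control groups. Col8a1 and Col8a2 lie on opposite sides of 0 in Ro cultures and near 0 in washout cultures, Col4a3 is far below its neighbour Col4a4 in Ro cultures, Col3a1 is below its neighbour Col5a2 in Ro and washout cultures, and Col4a1 and Col4a2 lie together throughout.

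The remaining classes held no call of 2-fold or more. In type VI collagen, which forms beaded filaments, Col6a2 changed by -0.51 ± 0.10 in Ro against control (adjusted p = 0.0126) and by -0.73 ± 0.10 in washout against control (adjusted p = 0.0191). Its neighbour on chromosome 10, Col6a1, had 49.5 and 47.9 in Ro cultures, 46.3 and 44.4 in washout cultures, and 54.4 and 46.7 in control cultures and passed in no comparison. Col6a4 did not pass on the probe used. Its other probe was well above background in Ro cultures alone and was kept for testing through that group. Passing the threshold there is therefore no separate support. That probe was at least 1.48-fold higher in Ro than in control cultures (adjusted p = 0.0331 among all probes). It also passed for washout against Ro (0.029), where the bound of at least 1.01-fold lower in washout was gone without Ro 1. Col18a1, a heparan sulfate bearing collagen of basement membranes, had 932 and 925 in Ro cultures, 817 and 746 in washout cultures, and 1153 and 1366 in control cultures. Its groups were apart, and it changed by -0.44 ± 0.11 in Ro against control (adjusted p = 0.0284) and by -0.69 ± 0.11 in washout against control (adjusted p = 0.0273). Col7a1, the collagen of anchoring fibrils, was lower in washout cultures, with a change of -0.56 ± 0.15 against Ro (adjusted p = 0.0326) and of -0.86 ± 0.15 against control (adjusted p = 0.0319). Col26a1 passed in no comparison. These calls did not hold under every exclusion of a single array, though the changes kept their sign. For washout against control, Col7a1 stayed between -1.01 and -0.70 and Col6a2 between -0.83 and -0.62. Those in Ro were lost without Ro 1 or Ro 2 for Col6a2 (adjusted p up to 0.0812) and also without control 2 for Col18a1 (up to 0.129). Those against control in washout were lost without control 2, Ro 1, Ro 2 or washout 1 for Col6a2 (up to 0.0721), without these or washout 2 for Col18a1 (up to 0.0921), and whichever array was left out for Col7a1 (up to 0.114). The Col7a1 call against Ro was lost without either Ro or either washout array (up to 0.146).

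Promoter sequence was found for 32 of the 39 genes, as 35 promoters. The TCF/LEF motif ATCAAAG, searched on both strands, was in 1 of 35 (2.86%, Col9a2) and in 3.73% of all 32851 promoters of the table. GGGCGG was in 22 of 35 (62.9%), against 35.7% of all promoters, and CCAAT in 13 of 35 (37.1%), against 37.4%. These shares describe the letters of the windows, which were not matched for base composition.

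Genes that make and process collagen were also described, from a list of 34 of which 29 were tested. In Ro against control 3 were higher (10.3%), against a background of 19.4%, and 13 lower (44.8%), against 22.7%, with a median change of -0.21. The largest falls were those of P4ha3 (-1.88 ± 0.09, adjusted p = 0.000263), a catalytic subunit of the enzyme that hydroxylates proline in collagen, P3h2 (-1.82 ± 0.11), another proline hydroxylase, Adamts2 (-1.56 ± 0.07), which removes the amino-terminal propeptide of fibrillar procollagens, and Loxl3 (-1.34 ± 0.10), of the lysyl oxidase family that cross-links collagen. The 3 that were higher were P4hb (0.52 ± 0.07), Ppib (0.41 ± 0.09) and P3h1 (0.35 ± 0.10), whose products help procollagen to fold and mature in the endoplasmic reticulum. In washout against Ro 6 were higher (20.7%) and 8 lower (27.6%), near the backgrounds of 21.4% and 20.1%, with P4ha3 at 1.39 ± 0.09, Adamts2 at 1.15 ± 0.07, P3h2 at 1.14 ± 0.11 and Loxl3 at 1.00 ± 0.10 among those higher. In washout against control 0 were higher and 11 lower (37.9%), against backgrounds of 4.13% and 5.97%, with a median of -0.25 and the largest fall in Pcolce2 (-0.91 ± 0.12, adjusted p = 0.0186), which enhances the removal of the carboxy-terminal propeptide. Of the gene lists, only the collagens were followed under the alternatives. How the counts of this list and of the receptors and markers below depend on single arrays was therefore not tested.

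Of 10 listed collagen receptors 6 were tested. In Ro against control 3 were lower (50.0%), against a background of 22.7%, and 0 higher, against 19.4%. In washout against Ro 3 were higher (50.0%), against 21.4%, and 0 lower, against 20.1%. In washout against control 1 was lower (16.7%), against 5.97%, and 0 higher, against 4.13%. With 6 genes such shares are coarse. Itga11, the integrin subunit that binds fibrillar collagen, changed by -2.75 ± 0.19 in Ro against control and by -1.53 ± 0.19 in washout against control. Itga1, which pairs with Itgb1 to bind collagen, changed by -1.39 ± 0.07 in Ro against control and by 1.26 ± 0.07 in washout against Ro. Itgb1 itself was lower in Ro against control by a smaller amount (-0.27 ± 0.08), and Ddr2, a receptor kinase for fibrillar collagen, was higher in washout against Ro (0.34 ± 0.07). All of these passed the threshold.

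**Figure D4:**
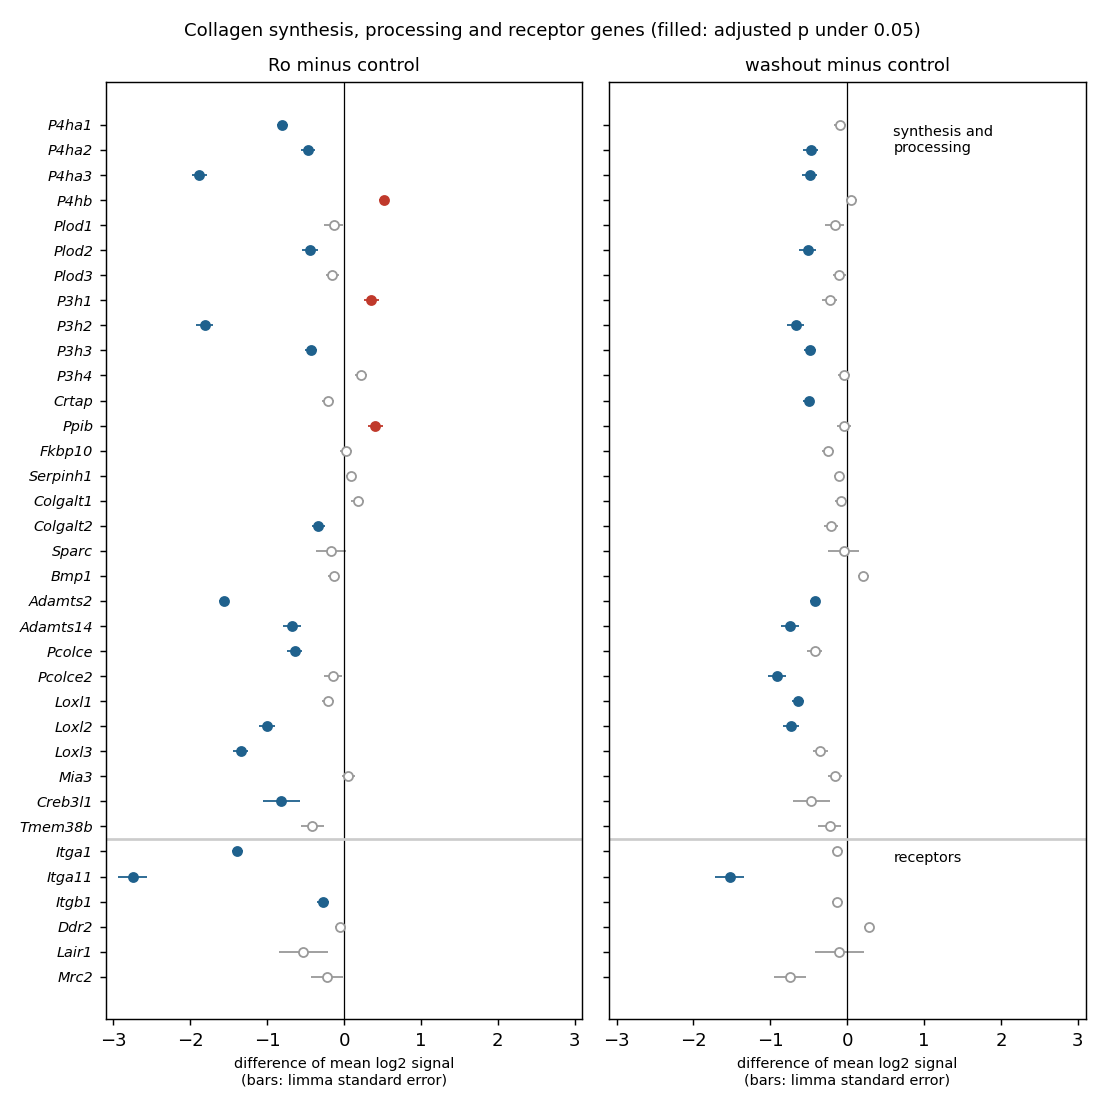
Change of 29 genes of collagen synthesis and processing and 6 collagen receptors, as the difference of mean log2 signal (x axis) with limma's standard error as bars, for Ro minus control and washout minus control. Filled points passed an adjusted p of 0.05, red for higher and blue for lower. In Ro minus control 13 synthesis genes are blue and 3 red, and in washout minus control 11 are blue and 0 red.

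Markers of other cells that make collagen moved between the groups as well, and their part in the collagen results was not tested. Of 12 meningeal fibroblast markers other than collagens 10 were tested, and the summed scaled signal was 1115 to 1192 in Ro cultures, 2676 to 2801 in washout cultures, and 1984 to 2059 in control cultures. In Ro against control 2 were higher (background 19.4%) and 6 lower (background 22.7%), and in washout against control also 2 higher and 6 lower (backgrounds 4.13% and 5.97%). The sum was made up mostly of Ogn, at 639.8 and 725 in Ro cultures, 2437 and 2296 in washout cultures, and 1609 and 1490.0 in control cultures, whereas Dcn had 41.6 and 46.9 in Ro cultures, 28.1 and 26.8 in washout cultures, and 58.8 and 71.8 in control cultures. The sum therefore does not show the direction of most of its genes. In this sum and those below, signals of different probes are added, so that genes with bright probes weigh most. Crabp2 was not above background on any array.

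Pericyte and smooth muscle markers, 8 of 10 tested, summed to 21198 to 21361 in Ro cultures, 42903 to 44171 in washout cultures, and 55506 to 60886 in control cultures, with 6 lower (background 22.7%) and 1 higher (background 19.4%) in Ro against control and 5 higher (background 21.4%) and 1 lower (background 20.1%) in washout against Ro. In washout against control 4 were lower (background 5.97%) and 0 higher (background 4.13%). The sum was made up mostly of Acta2 and Tagln, at 7622 and 13131 on Ro array 1. Des and Abcc9 were not above background on any array. Among endothelial markers 4 of 8 were tested, with sums of 305 to 331 in Ro cultures, 116 to 127 in washout cultures, and 117 to 128 in control cultures. The higher sum in Ro cultures was that of Kdr, at 240.3 and 273 in Ro cultures, 54.6 and 61.7 in washout cultures, and 29.8 and 29.4 in control cultures. In Ro against control 1 marker, Kdr, was higher (background 19.4%) and 3 were lower (background 22.7%), namely Flt1, Emcn and Vwf. Emcn had 1.81 and 1.90 in Ro cultures, under the lowest signals called well above background there (2.28 and 2.84). It was under those of the washout arrays too. Emcn was thus kept for testing through control cultures alone, where it was highest, so that its call is no separate support and no fold is given. Pecam1 and Tek were not above background on any array, and Cdh5 and Cldn5 were not tested either. Astrocyte markers, all 10 tested, summed to 13307 to 14064 in Ro cultures, 18485 to 19505 in washout cultures, and 18669 to 19679.6 in control cultures, with 7 lower (background 22.7%) and 2 higher (background 19.4%) in Ro against control. Microglial markers, 9 of 10 tested, summed to 664 to 848 in Ro cultures, 991 to 1099 in washout cultures, and 979 to 1014 in control cultures. In Ro against control 4 of them were lower (background 22.7%) and 1 higher (background 19.4%). Neuronal markers, 6 of 8 tested, summed to 2652 to 2975 in Ro cultures, 2855 to 3349.8 in washout cultures, and 3213 to 3981 in control cultures, with Snap25 and Slc17a7 not above background on any array. In Ro against control 3 were lower (background 22.7%) and 1, Gad1, was higher (background 19.4%). Their sum was mostly that of Syn1, which passed in no comparison, at 1901 and 2172 in Ro cultures and 2240 and 2972 in control cultures.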

How the data were processed

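Cy3-labelled RNA of 6 cultures was measured on one-colour Agilent arrays. The deposited array files hold linear intensity values for each spot, which the authors extracted with Agilent Feature Extraction (version 10.1 per the submitters' processing notes, 10.5.1.1 per the file headers) and which were corrected for background within the array but not scaled between arrays. A further table from the authors gives a linear ratio per probe and sample, of unstated centring, with column medians between 0.872 and 0.987. Its probe-centred log2 values correlated with those of the processed intensity across 23412 probes on every array, at the lowest with r = 0.999999 after rounding. It was used only for an alternative fit.

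Of 41174 non-control probes, 106 with faulty spots were left out. The log2 processed intensity was reduced by the array's 75th percentile, and 26474 probes were kept, each of which was well above background in both replicates of some group. Accessions were matched to symbols through the RefSeq table (25097 probes, 61.0%), and the brightest probe of each gene was used. The 20091 features were fitted with limma 3.58.1 (R 4.3.3) as 3 group means on the 6 arrays together (3 residual and 2.09 prior degrees of freedom), two-sided moderated tests and Benjamini-Hochberg adjustment. With 2 arrays a side the smallest two-sided p of an exact permutation test is 0.333, so that calls rest on the spread pooled by limma. A gene dim on both arrays of a group is given as a bound. The procedure was tested on simulated data, and plots were made in Python 3.11.15 (matplotlib 3.10.9).

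The members, lists, motifs and alternatives were chosen with earlier results of these data known. The naming rule gives full values for Col1a1, Col1a2, Col3a1, Col4a1, Col4a2, collagens past the threshold by at least 1 on the log2 scale, and bounds. Array values of other collagens were picked as examples after seeing them. Alternatives changed the background correction, scaling, filter, probe choice, variance model, pairing and arrays used. An exchanged pairing of the Ro arrays was added after seeing the data. Same-numbered arrays deviated from their group means with correlations of -0.12 (Ro and control), -0.11 (washout and Ro) and 0.08 (washout and control), so that the numbers were not taken as pairs.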

Additional observations from a re-analysis of the deposited data

How the results depend on the processing

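Across 17 alternatives for Ro against control and 16 for each comparison of washout, the counts of collagens higher and lower in Ro against control stayed within 1.5 times of 3 and 16 (2 to 3 and 11 to 15 when 1 array was left out, 3 to 4 and 13 to 18 otherwise). In washout against Ro, leaving out 1 array gave 5 to 9 higher and 3 to 5 lower, against 9 and 6. In washout against control, leaving out 1 array gave 0 to 1 higher and 1 to 6 lower, against 1 and 11. The count of 1 higher was 0 with normexp background correction, without the filter on dim probes and when probes of a gene were averaged, and 2 with a variance trend. The count of 11 lower was 1 without the filter, and 8 to 14 under the others besides the block. With the replicate number as a block, washout against control had 0 collagens higher and 2 lower, washout against Ro 7 and 4, and Ro against control 3 and 14. Exchanging the Ro numbers in that block gave 1 and 8, 10 and 6, and 3 and 15. Of 637 named gene values under an alternative, 560 kept direction and side of the threshold, 62 lost a call, 13 gained one and 2 changed sign, neither of them called: Col1a1 in Ro against control (0.073 without control 2, and -0.34 to 0.073 over single arrays left out) and Col25a1 in washout against control (0.19 without control 2, and -1.22 to 0.19). The cause of these differences was not tested. The share of all features called moved between alternatives too. For falls in Ro against control it was 22.7% here, 19.8% with median centring and 10.2% without the filter on dim probes. It was also lower when a control or Ro array was left out. Dim genes such as Col4a3 and Col14a1 are limited by their signal over background.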
